A study of Homo sapiens with 4 samples.

Results

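The integrated stress response was followed here through 10 of its regulators and target genes: ATF4, DDIT3, ATF5, CEBPB, CEBPG, CREBRF, PPP1R15A, TRIB3, CHAC1 and ASNS. They were chosen by name, with earlier results of these data known. All 10 had a row among the 37247 gene rows of the deposited table, and all 10 were among the 12947 genes tested. The cells were AMO1, a human plasmacytoma line labelled WT, grown as a model of multiple myeloma. They received either DMSO, the vehicle, at 0.10%, or periplocin, a plant cardiac glycoside that inhibits the sodium and potassium pump, at a labelled dose of 0.2 mM. That dose is high for such a drug, and its unit was taken from the labels as it stands. Both treatments lasted 6 h, and each group held 2 libraries of total RNA. Nothing in the labels says that libraries of the same treatment were separate cultures of this one line, so the p-values measure the spread between these libraries, which may be technical.

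In the integrated stress response, kinases that sense amino acid shortage, misfolded protein, viral RNA or lack of haem phosphorylate the initiation factor eIF2. General translation then falls, while the mRNA of ATF4, which carries short upstream reading frames, is translated more. ATF4 pairs with C/EBP proteins on target genes, among them DDIT3 (also called CHOP), TRIB3, CHAC1 and ASNS, and PPP1R15A brings a phosphatase back to eIF2. Plasma cells secrete large amounts of antibody and are known for a high load on the endoplasmic reticulum, where one of these kinases sits. RNA values measure neither eIF2 phosphorylation nor ATF4 protein.

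Values are TPM, a length-corrected share of all transcripts in a library, so levels can be set side by side between genes, but the number of reads behind them is unknown. The libraries carried plasma cell transcripts: all 10 plasma cell markers were detected in every library, and their summed level was 10430 to 10900 TPM with DMSO and 10500 to 10960 TPM with periplocin. SLAMF7 was called higher, and 5 of these markers were called lower (3 with size factors), where 18.9% of all tested genes were lower, with PRDM1 (log2 fold change -0.98), POU2AF1 (-0.65) and IRF4 (-0.60) the largest. The 5 B cell markers summed to 12.5 to 13.6 TPM and 12.1 to 12.8 TPM, most of it FCER2. The 7 T and NK cell markers summed to 4.87 to 8.06 TPM with DMSO and 4.02 to 4.65 TPM with periplocin, with CD2 and CD3D at 0 and NKG7 called lower, a call lost with size factors and 4 other settings (limma adjusted p up to 0.140). The 6 myeloid markers summed to 0.666 to 1.32 TPM and 1.70 to 1.74 TPM, with S100A8, S100A9 and FCGR3A at 0. Since TPM is a share, a change in a transcript's amount per cell cannot be told apart from a change in total RNA per cell. TPM does not measure the number of cells.

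ATF4 and its C/EBP partners bind a composite site, the C/EBP-ATF response element, which was searched here as TGATGNAA on both strands of RefSeq windows that run from 250 bases before each gene's start to 50 bases after it. CREB and ATF proteins bind the cAMP response element, searched as TGACGTCA, which reads the same on both strands; no match of one motif overlapped a match of the other in these genes. All 10 genes had at least 1 window (19 windows in all, GRCh38.p14). The first motif was found in windows of ASNS, CHAC1 and CEBPG and the second in PPP1R15A; of all 35116 windows of this length 3.62% held the first and 1.85% the second, and counted by gene, as the 10 are, 4.46% and 2.25% of 27305 genes did. A match is a description of letters and not a shown binding site. The 4 matches are printed because 3 of these genes rose and CEBPG did not pass the test; each stretch is 30 bases, read 5′ to 3′ on the gene's strand, with the matched motif in capitals.
ASNS, chr7:97872458-97872487, minus strand: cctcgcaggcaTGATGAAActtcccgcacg
CHAC1, chr15:40953251-40953280, plus strand: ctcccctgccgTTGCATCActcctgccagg
CEBPG, chr19:33374060-33374089, plus strand: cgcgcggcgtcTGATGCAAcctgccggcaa
PPP1R15A, chr19:48872352-48872381, plus strand: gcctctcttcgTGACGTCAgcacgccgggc
Counted from the RefSeq start, the matches began at -68 in ASNS, -209 in CHAC1, -42 in CEBPG and -58 in PPP1R15A, and the CHAC1 match lay on the reverse strand. GENCODE 29 places the ASNS and CHAC1 stretches inside exons of transcripts that start further upstream, the CEBPG stretch in an intron, and the PPP1R15A stretch just before the gene, outside any exon.

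For DDIT3 and CREBRF, which rose without either motif in their windows, the part before the start that no annotated exon covers is printed to show the letters searched; for PPP1R15A the same part shows the motif in its surroundings. The DDIT3 stretch lies before an inner start, within the annotated gene but outside its exons. No match here says only that these letters are not in this window.
DDIT3, chr12:57520518-57520709, minus strand: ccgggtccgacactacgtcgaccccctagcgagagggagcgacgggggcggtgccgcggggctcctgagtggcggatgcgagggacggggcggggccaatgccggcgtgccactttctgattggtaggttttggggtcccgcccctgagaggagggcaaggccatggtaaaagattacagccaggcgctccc
CREBRF, chr5:173056102-173056351, plus strand: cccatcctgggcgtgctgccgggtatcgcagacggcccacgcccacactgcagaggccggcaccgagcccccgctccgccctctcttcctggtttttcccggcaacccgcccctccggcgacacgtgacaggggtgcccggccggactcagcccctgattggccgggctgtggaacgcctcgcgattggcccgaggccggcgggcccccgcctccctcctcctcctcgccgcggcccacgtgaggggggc
PPP1R15A, chr19:48872171-48872391, plus strand: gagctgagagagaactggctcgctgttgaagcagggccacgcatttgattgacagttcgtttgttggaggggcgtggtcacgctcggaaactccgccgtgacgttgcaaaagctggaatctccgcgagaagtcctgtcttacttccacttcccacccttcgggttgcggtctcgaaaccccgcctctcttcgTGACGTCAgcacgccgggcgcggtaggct

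Of the 10 transcripts 5 rose with periplocin and none fell (limma, adjusted p under 0.05 over all tested genes). CREBRF, CHAC1, PPP1R15A, DDIT3 and ASNS were the 5 that rose, while ATF4, CEBPG, ATF5, CEBPB and TRIB3 did not pass. Of all tested genes 10.4% were called higher and 18.9% lower. The periplocin and DMSO libraries did not overlap for any of the 10, with periplocin on the higher side for 7 and on the lower side for 3. With 2 libraries per group 68.8% of all tested genes did not overlap either, so that count is no result about these genes. The median log2 fold change of the 10 was 0.35, against -0.14 over all tested genes. Since the 10 were chosen with earlier results of these data known, their counts and median are a description. Median-of-ratios size factors, which rescale each library as a whole, moved the median over all genes from -0.14 to -0.01 and the counts over all genes from 1352 higher and 2443 lower to 2046 and 1724; with them 6 of the 10 rose and none fell.

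**Figure D1:**
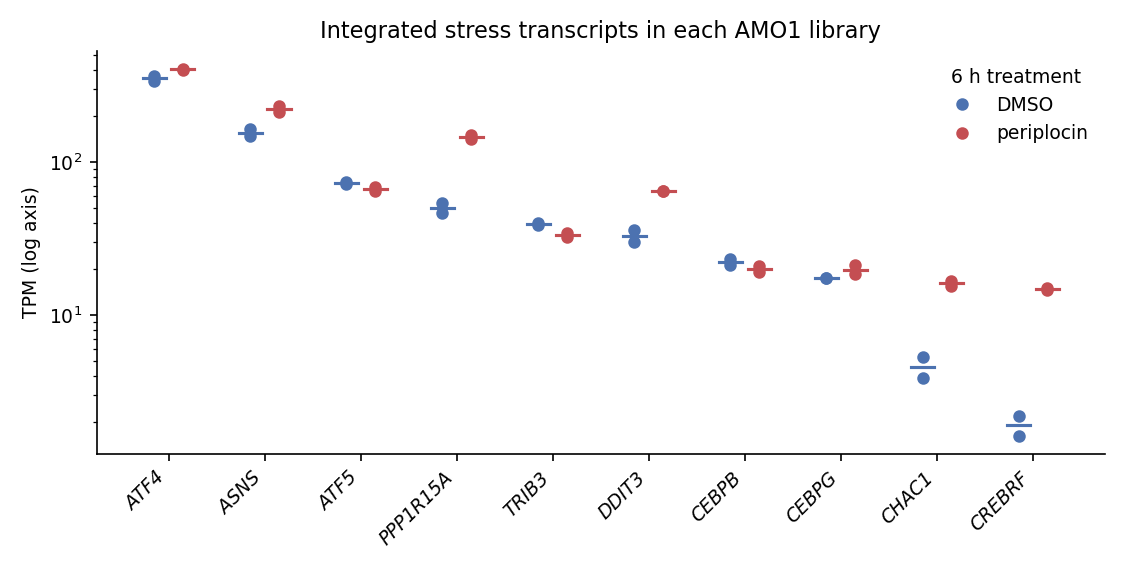
TPM (log axis) of the 10 transcripts in each library, ordered by their mean with DMSO; points are libraries and short bars are the means of 2 libraries. CREBRF and CHAC1 lie lowest with DMSO, at under 6 TPM. The libraries of the 2 groups do not overlap for any of the 10, as for 68.8% of all tested genes.

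The 10 transcripts spanned a wide range of levels. With DMSO their mean TPM ran from ATF4 (351) through ASNS (155), ATF5 (72.7), PPP1R15A (50.2), TRIB3 (39.5), DDIT3 (32.9), CEBPB (22.2) and CEBPG (17.5) to CHAC1 (4.61) and CREBRF (1.91). In this order no transcript's libraries overlapped those of its neighbour. With periplocin PPP1R15A stood above ATF5, and CEBPB and CEBPG were the only neighbours whose libraries overlapped. DDIT3 stood next to ATF5, at 64.5 against 66.7 TPM. Summed over the 10, the level was 732 to 763 TPM in the DMSO libraries and 997 to 1009 TPM in the periplocin libraries.

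ATF4 encodes the transcription factor at the centre of the response (chr22:39519695-39522685 on GRCh38). Its level was 365 and 336 TPM in the DMSO libraries and 403 and 399 TPM in the periplocin libraries. Both periplocin libraries were above both DMSO libraries, by a ratio of means of 1.14. The log2 fold change was 0.19 with a 95% interval of 0.01 to 0.37 and did not pass (limma adjusted p = 0.0954). With size factors it passed, at 0.34 (limma adjusted p = 0.0242). Its 3 pseudogene rows, ATF4P1, ATF4P3 and ATF4P4, which could take a share of its reads, were at or under 0.238 TPM in every library.

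DDIT3 encodes CHOP, a C/EBP-type factor that is a target of ATF4 and is known for its link to cell death under lasting stress (chr12:57516588-57521737). Its level was 35.79 and 29.99 TPM with DMSO and 64.47 and 64.54 TPM with periplocin. The periplocin libraries were almost equal and both stood above the higher DMSO library. The mean went from 32.9 ± 4.10 to 64.5 ± 0.0557 TPM (SD, n = 2). On the log2 scale the difference was 0.96 ± 0.12 (SE, limma adjusted p = 0.00566). At its ends the gene overlaps MARS1, listed by GENCODE 29 as MARS, and MBD6 on the opposite strand. Neither neighbour passed the test, with log2 fold changes of 0.32 and 0.48. On the same strand it shares 2769 bases with AC022506.1, listed at 0 and 2.36 TPM with DMSO and at 0 and 1.73 TPM with periplocin. No source used here states whether strand was counted, so reads of these overlaps cannot be assigned.

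CEBPB and CEBPG encode C/EBP factors that can pair with ATF4, and ATF5 encodes a relative of ATF4 whose mRNA also carries upstream reading frames. CEBPG (chr19:33373330-33382686) stood at 17.5 TPM in both DMSO libraries and at 18.5 and 21.1 TPM with periplocin, with a log2 fold change of 0.17 and a 95% interval of -0.18 to 0.51 (limma adjusted p = 0.410). CEBPB (chr20:50190734-50192689) stood at 23.2 and 21.1 TPM with DMSO and at 20.8 and 19.2 TPM with periplocin. Its log2 fold change was -0.14, with an interval of -0.48 to 0.19 (limma adjusted p = 0.460). ATF5 (chr19:49928702-49933935) stood at 74.0 and 71.4 TPM against 64.6 and 68.8 TPM, a log2 fold change of -0.12 with an interval of -0.35 to 0.11 (limma adjusted p = 0.355). On the opposite strand ATF5 overlaps IL4I1, AC011452.1 (5234 bases) and NUP62 (1062 bases). NUP62 stood at 140.2 and 139.7 TPM with DMSO and at 170.8 and 158.4 TPM with periplocin. CEBPB shares 765 bases with CEBPB-AS1 on the opposite strand, which has no values here. Reads of these overlaps cannot be assigned. With size factors the estimates of ATF5 (0.03) and CEBPB (0.0013) were above 0, and neither passed. All 3 intervals lay below the DDIT3 lower bound of 0.66, though the difference between genes was not tested.

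CREBRF had the largest difference of the 10. It encodes a regulator that promotes the breakdown of CREB3, a membrane-bound transcription factor of the secretory pathway (chr5:173056352-173139284). Its level was 2.19 and 1.63 TPM with DMSO and 14.5 and 15.0 TPM with periplocin, a ratio of means of 7.71. Each periplocin library was far above each DMSO library. The log2 fold change on the log2(TPM + 1) scale, which understates changes at such low levels, was 2.44 ± 0.21 (SE, limma adjusted p = 0.00361), and 13 of the 12947 tested genes had a higher one. A pseudocount of 0.1 in place of 1 gave 2.90. CREB3 RNA went from 21.1 ± 2.24 to 11.4 ± 1.38 TPM (SD, n = 2), a log2 fold change of -0.84 (limma adjusted p = 0.0168). It did not pass once the low-value filter was dropped (limma adjusted p = 0.0587). RNA values do not measure the breakdown of CREB3 protein, and 18.9% of all tested genes were called lower.

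PPP1R15A, also called GADD34, brings protein phosphatase 1 to eIF2 and so closes a feedback loop (chr19:48872392-48876057). Its level was 54.0 and 46.4 TPM with DMSO and 149 and 140 TPM with periplocin. The periplocin libraries were both above the DMSO libraries, at 2.88 times the mean. Of the 10 it had the smallest adjusted p, with a log2 fold change of 1.51 ± 0.11 (SE, limma adjusted p = 0.00245). TRIB3, a pseudokinase induced through ATF4 and CHOP that in turn restrains ATF4 (chr20:362835-397559), moved little. It stood at 38.9 and 40.0 TPM with DMSO and at 34.5 and 32.3 TPM with periplocin, the periplocin libraries being the lower ones. Its log2 fold change was -0.24, with an interval of -0.50 to 0.03 (limma adjusted p = 0.157), and it was -0.09 with size factors.

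CHAC1, an enzyme that breaks down glutathione (chr15:40952962-40956519), stood at 5.32 and 3.90 TPM with DMSO and at 15.5 and 16.7 TPM with periplocin. The groups were well apart, with a ratio of means of 3.50 and a log2 fold change of 1.62 ± 0.20 (SE, limma adjusted p = 0.00550). ASNS, the enzyme that makes asparagine (chr7:97852118-97872542), stood at 147 and 164 TPM with DMSO and at 212 and 232 TPM with periplocin. It had the smallest rise of the 5, with a log2 fold change of 0.51 ± 0.09 (SE, limma adjusted p = 0.0129). Dropping the low-value filter ended the ASNS call (limma adjusted p = 0.0520), as did fitting without the variance trend (0.0616) or without periplocin replicate 2 (0.0720). Its 4 pseudogene rows were at or under 0.732 TPM. AC005326.1, a processed pseudogene on the opposite strand, shares 123 bases with ASNS. It rose from 3.47 and 7.57 TPM to 36.4 and 33.3 TPM (log2 fold change 2.53, limma adjusted p = 0.00527). AC079781.5, on the same strand, overlaps ASNS by 20425 bases and has no values here. The part of either in the ASNS value was not tested.

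**Figure D2:**
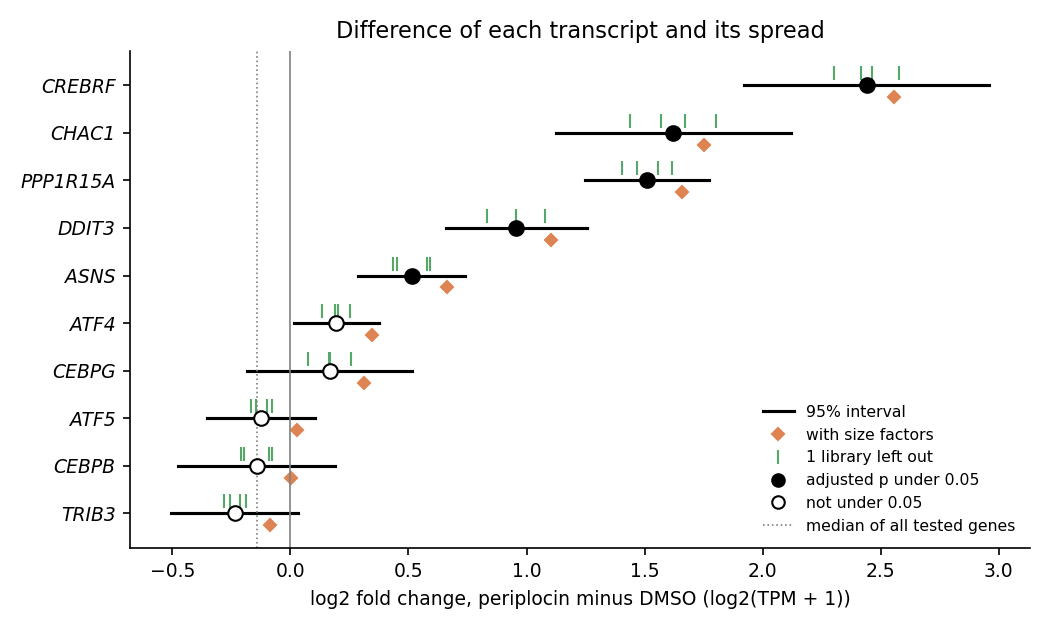
Log2 fold change of each transcript, periplocin minus DMSO on the log2(TPM + 1) scale, with its 95% interval (limma); filled points have an adjusted p under 0.05, diamonds use size factors and ticks leave out 1 library. CREBRF, CHAC1, PPP1R15A, DDIT3 and ASNS lie to the right of 0 under every setting drawn, and the other 5 lie between -0.24 and 0.19 as deposited.

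Each of the 5 rises kept its direction when any 1 library was left out, but the calls rested on both DMSO libraries. Without DMSO replicate 1 or without DMSO replicate 2 no gene of the table passed, and the 5 had adjusted p from 0.0976 to 0.118 and from 0.0839 to 0.0875 (limma). In those fits 3925 and 4156 genes were under 0.05 before adjustment, where the full fit had 5585.

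Upstream of ATF4, none of the 4 eIF2 kinase genes rose, and 2 fell, or 1 with size factors. Of all tested genes 10.4% rose and 18.9% fell, and a count over 4 genes is only a description. EIF2AK2, the kinase that senses double-stranded RNA, stood at 19.4 and 18.8 TPM with DMSO and at 8.22 and 9.28 TPM with periplocin (log2 fold change -1.04, limma adjusted p = 0.00798). EIF2AK3, the kinase PERK of the endoplasmic reticulum, stood at 64.1 and 76.2 TPM against 42.95 and 53.5 TPM (-0.53, limma adjusted p = 0.0416). The EIF2AK3 call was lost with size factors (limma adjusted p = 0.0903), with quantile normalization (0.0543), without the trend (0.101) and without the filter (0.1245). The median over the 4 was -0.52, against -0.14 over all tested genes.

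Of 13 genes for eIF2 subunits, its exchange factor eIF2B, its phosphatase and the separate initiation factor EIF2A, 4 fell, 2 rose and 7 did not pass. Of all tested genes 18.9% fell and 10.4% rose. The exchange factor subunits EIF2B3 and EIF2B1 fell by 1.64 and 0.89 on the log2 scale, and the eIF2 subunits EIF2S2 and EIF2S3 by 0.76 and 0.59. EIF2B3 stood at 34.6 and 36.4 TPM with DMSO and at 8.70 and 13.2 TPM with periplocin. The 2 that rose were PPP1R15B, the constitutive partner that directs the phosphatase to eIF2, and PPP1CB, a catalytic subunit named after its value was seen (0.51). PPP1R15B stood at 51.5 and 58.0 TPM with DMSO and at 109 and 112 TPM with periplocin, a log2 fold change of 1.00 ± 0.10 (SE, limma adjusted p = 0.00394). The other catalytic subunits PPP1CA (0.08) and PPP1CC (0.20) and the exchange factor subunit EIF2B5 (0.27) were among those that did not pass. With size factors 4 of the 13 were higher and 4 lower. EIF2S2 did not pass without the filter on low values (limma adjusted p = 0.0518).

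Of 7 genes for proteins that act on these kinases or work beside them QRICH1 rose and IMPACT fell, which is near the shares of 10.4% and 18.9% over all tested genes. QRICH1, a transcriptional regulator that works with the unfolded protein response, had a log2 fold change of 0.78. IMPACT, an inhibitor of the amino acid sensing kinase EIF2AK4, stood at 6.60 and 4.56 TPM with DMSO and at 0.666 and 1.23 TPM with periplocin (-1.75), and did not pass without the filter (limma adjusted p = 0.0592).

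Genes linked to ATF4 were divided by function. Of 13 tested genes of signalling and growth control 8 rose and none fell, with a list median of 0.80. For this list and the CHOP list below, the values over all tested genes were 10.4% higher, 18.9% lower and a median of -0.14. GDF15, a stress cytokine (2.68), KLHL24 (1.62), TXNIP, an arrestin-like protein (1.31), and ATF3, a stress-induced bZIP factor (1.24), had the largest fold changes among those called. KLHL24 stood at 19.5 and 16.1 TPM with DMSO and at 51.8 and 61.5 TPM with periplocin, and ATF3 at 3.72 and 2.81 against 11.8 and 6.84 TPM. The ATF3 call was lost without the filter (limma adjusted p = 0.114). Of 6 genes linked to CHOP and cell death 4 rose and none fell: BBC3 (2.21), TNFRSF10B (1.55), PMAIP1 (1.11) and BMF (0.94).

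Of 13 tested genes of amino acid synthesis 2 rose and 2 fell, near the shares of 10.4% and 18.9% over all tested genes, and the median was -0.10. CTH, which makes cysteine from cystathionine, went from 6.83 and 5.43 TPM to 15.2 and 16.5 TPM (log2 fold change 1.25), and the aminotransferase GOT1 had a fold change of 0.40. PSPH, an enzyme of serine synthesis (-0.57), and the mitochondrial folate enzyme MTHFD2 (-0.26) were called lower. The calls of GOT1 (limma adjusted p = 0.0847 without the trend), PSPH (0.0659 without the filter) and MTHFD2 (0.314 with size factors) did not hold under those settings. Among 8 tested transporter genes 4 rose and none fell. SLC3A2, the shared heavy chain of several amino acid exchangers, went from 257 ± 4.82 to 418 ± 17.9 TPM (SD, n = 2; 0.70), SLC38A2 rose by 2.37, and SLC6A9 (0.58) and SLC1A4 (0.32) were called but did not pass without the filter (limma adjusted p = 0.0906 and 0.0617).

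Of 13 genes for tRNA synthetases and the tRNA exporter XPOT 3 fell and 1 rose, near the shares of 18.9% and 10.4% over all tested genes. LARS1, the leucine enzyme, stood at 105 and 119 TPM with DMSO and at 57.0 and 51.8 TPM with periplocin (-1.02). AARS1 (-0.42) and EPRS1 (-0.38) were called lower and did not pass with size factors (limma adjusted p = 0.0978 and 0.124). The row of CARS1 (1.25) was listed at almost 0 in 1 DMSO library and reached at most 2.04 TPM, and reads of the gene may sit in a further row on an alternate sequence, so this row may not measure CARS1 and its call is uncertain. With size factors 4 were higher and 1 lower. Of 16 targets of ATF6 and XBP1, the other arms of the unfolded protein response, 8 fell and none rose. The 8 included the secretory chaperones CRELD2 (-1.25), HSPA5 (-0.91), CALR (-0.90) and MANF (-0.84). Over all tested genes 18.9% fell and 10.4% rose. With size factors 6 of these 16 were lower and 1 was higher.

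**Figure D3:**
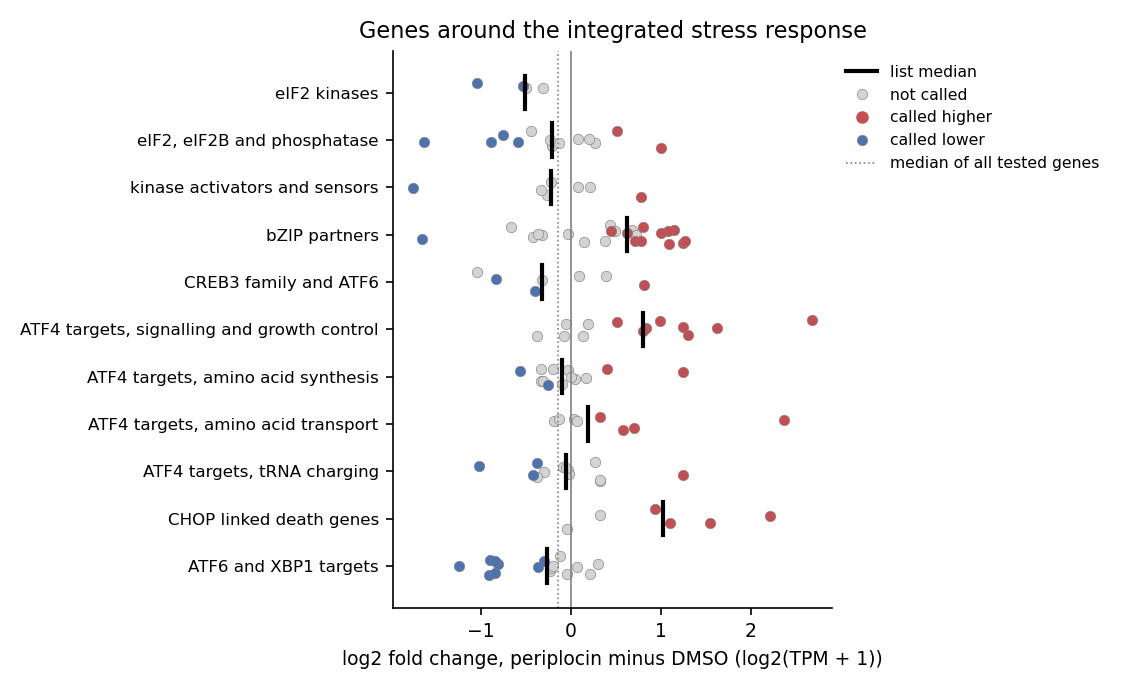
Log2 fold change, periplocin minus DMSO, of each tested gene of 11 lists around the integrated stress response; colours mark calls at an adjusted p under 0.05, black bars are list medians and the dotted line is the median of all tested genes. The medians run from -0.52 for the eIF2 kinases to 1.02 for the genes linked to CHOP and cell death.

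Over all 11 lists 122 of 139 genes were tested, of which 33 rose and 23 fell, with a median of -0.02, where 10.4% of all tested genes rose and 18.9% fell. With size factors 41 rose and 16 fell. These lists were chosen with earlier results of these data known, so their counts are a description.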

How the data were processed

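The authors deposited 1 table of TPM values for 4 libraries of AMO1 RNA. The submitters' processing notes list GRCh38 and DESeq2 without saying what each was used for. No source used here states the aligner, quantifier, annotation or strand setting. Depth is therefore unknown, and no counting interval is given. PP in the column names was taken to mean periplocin. Identifiers were matched to symbols through a name table and to positions in GENCODE 29, which held 34620 of the 37247 rows. A gene can have a further row on an alternate sequence, so that a transcript's reads may be divided among rows.

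Genes reaching 1 TPM in 2 or more of the libraries were tested with limma-trend (limma 3.58.1, R 4.3.3) on log2(TPM + 1), by a two-sided test with p-values adjusted by Benjamini-Hochberg across 12947 genes and a threshold of 0.05. The fit had 2 residual and 4.01 prior degrees of freedom; an exact permutation test of 2 against 2 libraries cannot go below p = 0.333. The script was tested on simulated data. Plots were drawn with matplotlib 3.10.9 under Python 3.11.15. Promoter windows are RefSeq's (GRCh38.p14), 250 bases before to 50 after a start.

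The members, the lists, the motifs and the tests were chosen with earlier results of these data known. Named genes were all 10 members and, per list, up to 4 called genes with the largest fold change or the 2 most abundant where none was called. The 3 genes nearest to ATF4 and to DDIT3 in pattern were named too. EIF2S3, EIF2B5, PPP1CA, PPP1CB, PPP1CC, ATF1, JUND and CEBPZ fall outside this rule and were chosen after their values were seen. Alternatives changed the pseudocount, filter, scaling and trend, added the replicate number as a block, or left out 1 library.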

Additional observations from a re-analysis of the deposited data

How the results depend on the processing

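With 4 libraries, between 4 and 6 of the 10 members rose and none fell under every alternative run. With no filter on low values 613 genes of the table rose and 1026 fell, and 12 genes of the wider lists fell. Without the trend 876 genes rose, and 15 of the wider lists fell. With size factors 2046 genes rose. When 1 library was left out, 0 to 522 genes rose and 0 to 1142 fell, with 0 to 5 members higher; over the wider lists 0 to 22 rose and 0 to 15 fell. The zeros came without DMSO replicate 1 or DMSO replicate 2, in fits with 1 residual degree of freedom where the lone DMSO library was assumed to vary like the periplocin ones; these fits hold fewer libraries. Estimates that changed sign did not pass before or after: ATF5 (0.026) and CEBPB (0.0013) with size factors, and FCER2 with size factors (0.12), quantile normalization (0.20) and with 1 library left out (-0.103 to 0.0742). Of 51 named genes called, 33 were called in every fit with 4 libraries. Same-numbered libraries deviated together only weakly (r = 0.0324 across genes), so the numbers were not taken as pairs; with the replicate block 1685 genes rose and 2876 fell, and 6 members rose, ATF4 among them (limma adjusted p = 0.0394). Depth is unknown, so what it limits cannot be given.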

Other observations

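ATF4, CHOP and the C/EBP factors belong to the bZIP class of transcription factors. Of 32 genes listed as their possible partners 23 were tested. Among the 32, CEBPZ carries the name without being a bZIP protein. Of the 23 tested, 11 rose and 1 fell, with a median log2 fold change of 0.62. Over all tested genes 10.4% rose and 18.9% fell, with a median of -0.14. FOS (1.27), ATF3 (1.24) and MAFG (1.15) were among those that rose, and BATF (-1.65) was the one that fell. MAFG, a small Maf protein that pairs with other bZIP factors, stood at 22.9 and 22.3 TPM with DMSO and at 52.1 and 50.4 TPM with periplocin. ATF1 (1.00) and JUND (1.08), named after their values were seen, also rose. The calls of FOS and BATF were lost without the filter on low values (limma adjusted p = 0.0897 and 0.0833). Of 7 tested genes of the CREB3 and ATF6 group, CREBZF rose by 0.81, CREB3 fell by 0.84 and XBP1 fell by 0.40. The counts of the CREB3 and ATF6 group are near the shares of 10.4% higher and 18.9% lower over all tested genes. The XBP1 call was lost with size factors (limma adjusted p = 0.106) and the CREB3 call without the filter (limma adjusted p = 0.0587).

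The genes whose values over the 4 libraries were nearest to those of ATF4, by Euclidean distance of centred log2(TPM + 1) among 7678 protein-coding genes with a mean of at least 10 TPM, were LSM1 (distance 0.0201), PGGHG (0.0224) and YRDC (0.0244). Those nearest to DDIT3 were AK6 (0.0647), MAD2L1BP (0.0728) and CD70 (0.0793). None of these 6 belongs to the lists used here. LSM1, PGGHG and YRDC did not pass (limma adjusted p = 0.179, 0.170 and 0.205). AK6, MAD2L1BP and CD70 were called higher (limma adjusted p = 0.00675, 0.00746 and 0.00305). With 4 values per gene and 7678 genes compared, close matches can be found for many patterns, and shared control was not tested. CD70, a surface ligand of immune cells, stood at 382 and 340 TPM with DMSO and at 733.5 and 716 TPM with periplocin.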
